A study of Mus musculus with 15 samples.

Results

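Transcripts for 10 basement membrane proteins were examined in the gastrocnemius muscle of mice. The genes were Col4a1, Col4a2, Lama2, Lama4, Lamb1, Lamb2, Lamc1, Nid1, Nid2 and Hspg2, and they were taken as every probe set of the array table whose annotated symbol is one of them. This gave 17 probe sets of 22690, each a group of short probes read as 1 value, most of them against the transcripts of a single gene. All mice were male C57BL/6NHsd, housed singly, and 1 array was hybridized per mouse. The 5 young mice (5 months) and the 5 old mice (25 months) ate a control diet of 84 kcal per week, about 15% below free feeding. The 5 old mice on caloric restriction (CR, 25 months) had a lifelong diet that differed by 26% in calories from the control diet and was enriched in protein, vitamins and minerals. There were no young CR mice, so the effect of the diet at the young age was not measured. The comparisons asked what differs between young and old muscle, and what differs between old mice on the control and CR diets.

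The basement membrane is a thin sheet of extracellular matrix that wraps each muscle fiber and underlies the endothelium of capillaries and the Schwann cells of nerves. Laminins, trimers of an alpha, a beta and a gamma chain, assemble into a first network at the cell surface, where integrins and dystroglycan hold them. Collagen IV, a trimer that in most tissues has chains from Col4a1 and Col4a2, forms a further network that gives the sheet its strength. Nidogens bridge the networks, and perlecan (Hspg2), a heparan sulfate proteoglycan, binds to both and retains growth factors. In muscle, the laminin that contains the Lama2 chain links the fiber to the matrix, and loss of Lama2 causes a congenital muscular dystrophy.

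Col4a1 and Col4a2 lie head to head on chromosome 8 of the mouse (GRCm38.p6) and are read in opposite directions, with start sites 21 bp apart in the transcripts used for the promoter windows. Col4a1 spans 11198423 to 11312889 on the minus strand and Col4a2 spans 11312805 to 11449287 on the plus strand. Their promoter windows (RefSeq, 250 bases before to 50 after the start) are shown because both genes had their lowest mean intensity in old CR mice. The Col4a1 window is chr8:11312777-11313076 and the Col4a2 window is chr8:11312555-11312854. Both are written 5′ to 3′ on the strand of the gene, and capitals mark the 78 bases (11312777 to 11312854) that lie in both windows and appear in the other as the reverse complement.
Col4a1: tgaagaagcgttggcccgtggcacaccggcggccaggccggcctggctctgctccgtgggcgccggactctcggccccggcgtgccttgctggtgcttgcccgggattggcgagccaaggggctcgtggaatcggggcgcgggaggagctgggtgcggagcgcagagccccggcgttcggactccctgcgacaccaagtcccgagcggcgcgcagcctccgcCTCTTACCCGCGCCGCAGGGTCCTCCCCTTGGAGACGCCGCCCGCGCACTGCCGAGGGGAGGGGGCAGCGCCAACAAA
Col4a2: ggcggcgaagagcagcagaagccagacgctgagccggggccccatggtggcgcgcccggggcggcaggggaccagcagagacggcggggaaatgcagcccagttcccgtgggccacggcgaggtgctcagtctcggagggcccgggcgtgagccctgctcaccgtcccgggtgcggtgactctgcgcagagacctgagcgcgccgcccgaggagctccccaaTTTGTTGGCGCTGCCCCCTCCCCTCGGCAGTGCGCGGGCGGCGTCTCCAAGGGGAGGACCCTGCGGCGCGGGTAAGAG
The windows had a GC content of 74% and 73.7%, against a median of 52.7% over 32851 promoters, of which 4.77% and 5.10% were at or above these values. The motif GGGCGG, searched on both strands, occurred once in the Col4a1 window and 3 times in the Col4a2 window, with 1 match inside the shared bases. It was found in 35.7% of all promoters and in 6 of the 7 members that have a promoter entry. CCAAT occurred once in each of the pair and in 4 of the 7 members (37.4% of all promoters), while TATAAA was found in none of the 7 (13.6% of all promoters).

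All values below are deposited intensities on a linear scale. Means are given with the SD over 5 mice, differences are in log2 with their standard error (SE), and folds are taken from the log2 differences. The adjusted p is from limma, fitted over 22626 probe sets with Benjamini-Hochberg adjustment, and a probe set was called at an adjusted p under 0.05. Values of single mice are listed in the order of the replicate numbers, which are 1 to 5 in young and old mice and 2, 3, 5, 6 and 7 in old CR mice. Intensities of different probe sets are not set against each other as levels. Statements that groups do not overlap describe the values of single mice, and the share of all probe sets without overlap is not given. Gastrocnemius is a mixture of fibers, vessels, connective tissue and nerve, so that fewer cells of a type and less RNA per cell cannot be told apart. The 11 muscle fiber markers (such as Ckm and Acta1) were all bright, with a summed intensity of 224261 to 364221 per mouse.

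One property of the arrays moved with the groups. For Gapdh and Actb the array carries control probe sets at the 3′ and 5′ ends, and the log2 ratio of their signals (the 3′/5′ ratio) measures how well the 5′ end of a transcript is represented after labeling from its 3′ end. It was -0.04 ± 0.19 in young, 0.25 ± 0.10 in old and -0.21 ± 0.12 in old CR mice for Gapdh (mean ± SD, n = 5 each). For Actb it was -0.32 ± 0.09, 0.01 ± 0.11 and -0.38 ± 0.09. The old arrays were above the old CR arrays for both controls, and above the young arrays for Actb, without overlap (adjusted p = 0.0159 each, exact two-sided permutation test, 6 tests). For Gapdh the young and old arrays overlapped (adjusted p = 0.0595, same test). The comparison of old with young mice and that of old CR with old mice thus both run along this property. Fitted with it as a covariate, limma called 0%, 0% and 0.0354% of all probe sets for old minus young, old CR minus old and old CR minus young, so that a call lost in this fit is not particular to a gene and the size of the difference is given beside it. Young replicate 3 stood apart from the other young mice. The mean of both controls was 0.06 on its array, against -0.28 to -0.18 on the other young arrays and 0.05 to 0.27 on the old arrays. Values that rest on this array are therefore given with and without it.

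In old CR muscle 1 of the 2 probe sets of Col4a1, a collagen IV chain, and the probe set of Nid2, a nidogen, were lower than in old muscle on the control diet. The other Col4a1 probe set differed by -0.17 (adjusted p = 0.526). Of the 3 probe sets for the laminin chain gene Lamb1, 1 was higher. These 3 of the 17 probe sets were called: Col4a1 (1452035_at) and Nid2 fell, and Lamb1 (1451241_at) rose. The background was 4.87% of all probe sets called (1102 of 22626). The median log2 difference was -0.04 over the 17 probe sets (10 lower, 7 higher) and 0.06 over all probe sets, of which 44.7% were lower. At an unadjusted p under 0.05 (limma), 4 of 17 were lower and 3 of 17 higher, against 9.33% lower and 12.5% higher over all probe sets. The plot of differences shows each probe set with its confidence interval in the 3 comparisons.

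**Figure D1:**
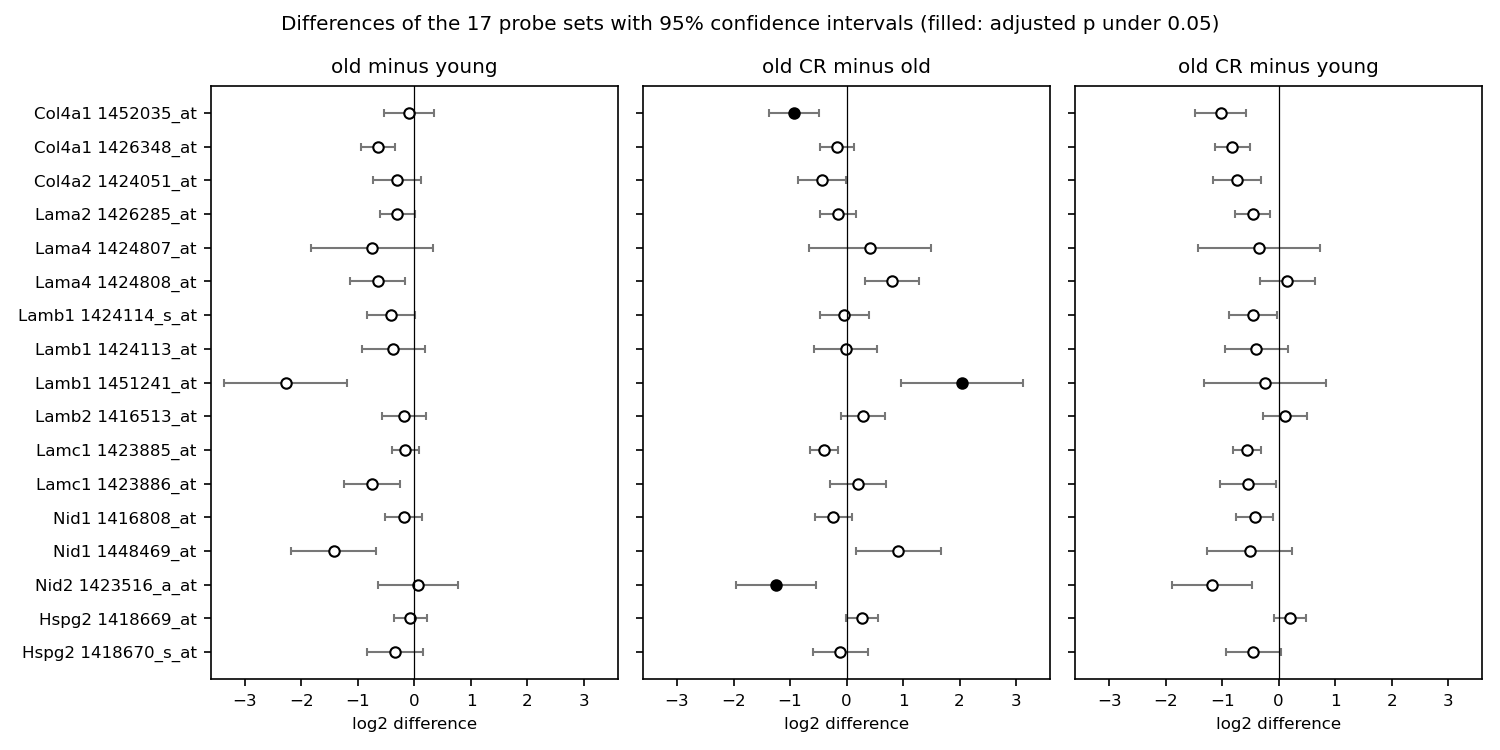
Log2 differences (x axis) of the 17 probe sets (y axis) between the groups named above each panel, from limma on 15 arrays. Points are the estimates, bars the 95% confidence intervals, and filled points have an adjusted p under 0.05. The 3 filled points are in the panel for old CR minus old, with Col4a1 1452035_at at -0.93, Lamb1 1451241_at at 2.05 and Nid2 at -1.25.

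Between old and young mice no member was called, where 0.265% of all probe sets (60 of 22626) were. Most estimates were negative: 16 of 17 were lower in old mice, against 57.0% of all probe sets. The median was -0.34, against -0.06 over all probe sets. At the brightest probe set of each gene 9 of 10 were lower, against 56.3% of all genes. At an unadjusted p under 0.05, 5 of 17 were lower and 0 of 17 higher, beside 9.25% lower and 6.24% higher over all probe sets. The 5 were Col4a1 1426348_at, Lama4 1424808_at, Lamb1 1451241_at, Lamc1 1423886_at and Nid1 1448469_at, and the same 5 probe sets were called when young replicate 3 was left out, a fit in which the share called over all probe sets went from 0.265% to 4.72%. None of the 5 was the brightest probe set of its gene. At the brightest probe set of each gene, 0 of 10 had an unadjusted p under 0.05 (limma), against 15% of all genes. Among the 11313 brighter probe sets, 2 of 12 members were called (Col4a1 1426348_at and Nid1 1448469_at, both lower in old mice), against 5.06% of those tested.

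Old CR mice differed from young mice in both age and diet. None of the 17 probe sets was called (0.0884% of all probe sets were), and at an unadjusted p under 0.05, 9 of 17 were lower and 0 of 17 higher in old CR mice. Over all probe sets these shares were 6.26% lower and 5.83% higher. The median was -0.45 over the members (14 lower, 3 higher) and -0.01 over all probe sets, of which 50.8% were lower. Among the 11313 brighter probe sets, 3 of 12 members were called, against 1.8% of those tested: both Col4a1 probe sets and Lamc1 1423885_at were lower. In the comparison of old CR with old mice, 2 of these 12 were called (Col4a1 1452035_at and Lamc1 1423885_at), where 15.7% of the brighter probe sets were. The 3 comparisons share mice, so their counts are not independent of each other.

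All 3 collagen IV probe sets had their lowest mean in old CR mice. For Col4a1 at its brighter probe set (1452035_at), the 5 young mice had 1841, 1781, 2625, 1955 and 1449. The old mice had 2196, 1882, 2057, 1431 and 1420.4, and the old CR mice had 964, 631, 843, 1237 and 1092. All 5 old CR values lay below all 10 others, while the young and old values overlapped. The mean fell from 1797 ± 357 (old) to 954 ± 232 (old CR), 1.9-fold lower (log2 difference -0.93, SE 0.21, adjusted p = 0.0262). Against young mice (1930.0 ± 431) old CR mice differed by -1.03 (SE 0.21, adjusted p = 0.0709), which was not called. The old minus young difference was -0.10, with a 95% interval of -0.55 to 0.35. The call against old mice was lost without old replicate 1, 2 or 3 or old CR replicate 5, with adjusted p up to 0.0621. With the 3′/5′ ratio as a covariate the log2 difference was -0.46 (adjusted p = 0.895).

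The other Col4a1 probe set (1426348_at) gave a different order. Its values were 1715, 2101, 1880.0, 1865 and 1744 in young and 1276, 1052, 1163, 997 and 1504 in old mice. In old CR mice they were 1044, 807, 1109.6, 1141 and 1215. Here the young values lay above those of both old groups, and the old and old CR values overlapped. The mean was 1861 ± 152 in young, 1198 ± 202 in old and 1063 ± 156 in old CR mice. The log2 difference was -0.65 (SE 0.14, adjusted p = 0.0701) for old minus young and -0.82 (SE 0.14, adjusted p = 0.0533) for old CR minus young, neither of them called. It was -0.17 (SE 0.14, adjusted p = 0.526) for old CR minus old. Without young replicate 3 the old minus young difference was -0.64 (adjusted p = 0.0333), and with the ratio covariate -0.57 (adjusted p = 0.744).

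Col4a2 encodes the chain that joins the Col4a1 product in the same trimer. Its single probe set (1424051_at) had 1391, 1307, 1924, 1572 and 1068 in young mice. The old mice had 1414, 1238, 1370.2, 789.6 and 1062, and the old CR mice had 1019, 633, 949, 833 and 876. The old CR values lay below all young values and overlapped with the old ones. The mean was 1453 ± 320.0, 1175 ± 255 and 862 ± 146 in young, old and old CR mice. No comparison was called for it: the log2 difference was -0.74 (SE 0.20, adjusted p = 0.157) for old CR minus young, -0.43 (SE 0.20, adjusted p = 0.217) for old CR minus old and -0.31 (SE 0.20, adjusted p = 0.476) for old minus young. With the ratio covariate these were -0.64 (adjusted p = 0.337), -0.04 (adjusted p = 0.993) and -0.60 (adjusted p = 0.803).

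**Figure D2:**
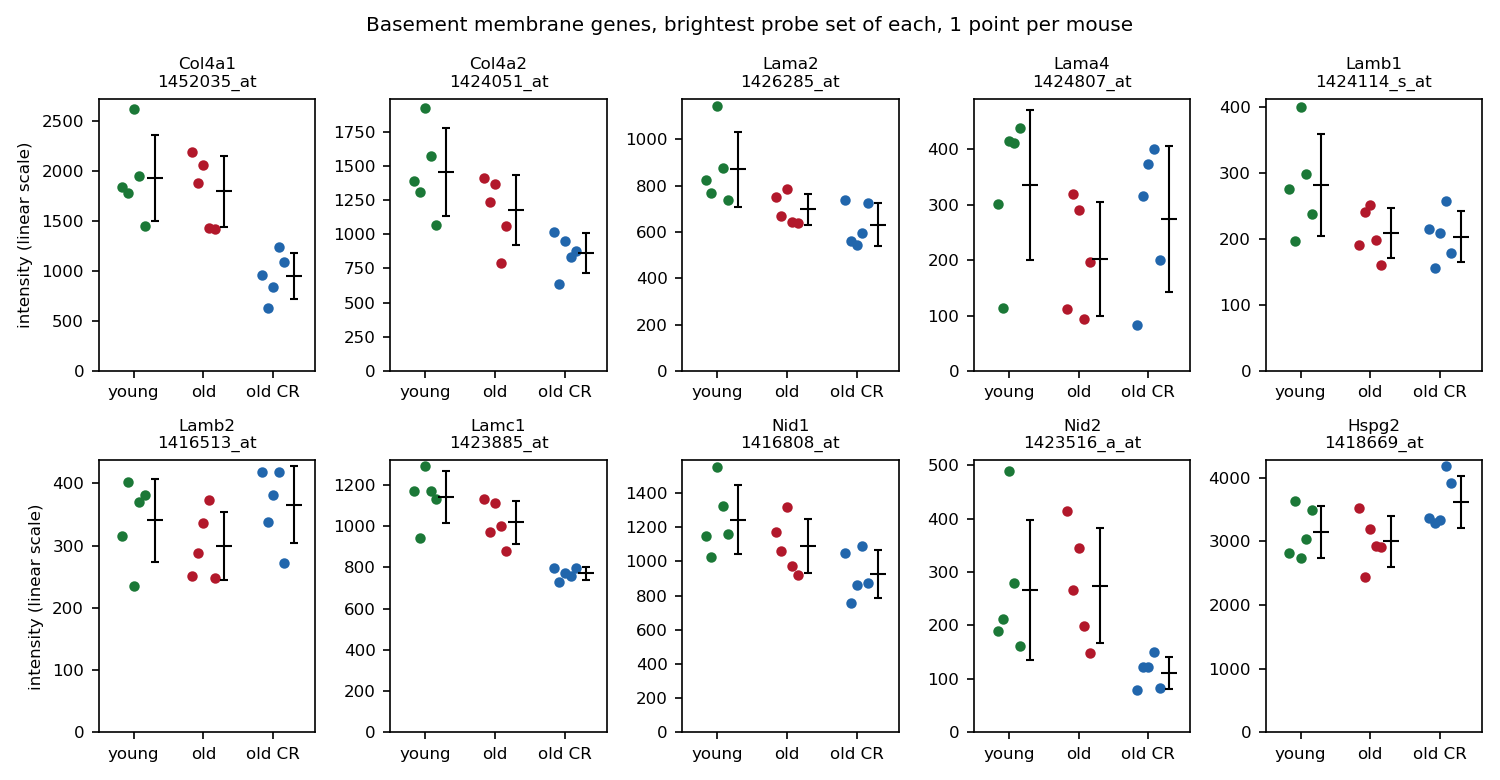
Intensity (y axis, linear scale from 0) in young, old and old CR mice (x axis) at the brightest probe set of each of the 10 genes. Each point is 1 mouse, and the black mark and bar are the mean and SD of 5 mice. Old CR mice lie below all old mice for Col4a1 and Lamc1, and below all young mice for Col4a1, Col4a2, Lamc1 and Nid2. The share of all genes that separate in this way is not given, so this only describes the points shown.

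Among the laminins, the gamma chain gene Lamc1 (chromosome 1, 153218922 to 153332786), whose product is part of most laminin trimers, was lowest in old CR mice at its brighter probe set (1423885_at). The young mice had 1172, 942, 1291, 1169 and 1131 and the old mice had 1132, 971, 1113, 1003 and 877. The old CR mice had 799, 728, 773, 756 and 799, a narrow range below all 10 other values. The means were 1141 ± 126, 1019 ± 105 and 771 ± 30.2 in young, old and old CR mice. Over all probe sets neither difference was called, with -0.40 (SE 0.11, adjusted p = 0.06) for old CR minus old and -0.56 (SE 0.11, adjusted p = 0.0709) for old CR minus young. Among the brighter probe sets both were called (adjusted p = 0.0244 and 0.0215). With the ratio covariate, over all probe sets, they were -0.19 (adjusted p = 0.919) and -0.50 (adjusted p = 0.203). The other Lamc1 probe set (1423886_at) was dim, with means of 43.3 ± 9.08, 25.8 ± 6.25 and 29.9 ± 7.28, and its old CR minus old difference was 0.20 (SE 0.23, adjusted p = 0.654). Its old minus young difference of -0.75 (adjusted p = 0.14) became -0.90 without young replicate 3 (adjusted p = 0.0365) and -0.22 with the ratio covariate (adjusted p = 0.950).

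Lamb1 (chromosome 12, 31265146 to 31329644) encodes the beta chain that pairs with the Lamc1 product in the laminins of muscle fibers and vessels, and its 3 probe sets disagreed. At 1451241_at the young mice had 119.8, 143, 20.1, 168 and 179. The old mice had 17.7, 16.2, 17.8, 38.7 and 19.4, and the old CR mice had 124, 90.5, 102, 71.0 and 56.3. All old CR values were above all old values, and young replicate 3 lay among the old mice. Old mice had a mean of 21.9 ± 9.42, against 88.8 ± 26.5 on the CR diet (log2 difference 2.05, SE 0.51, adjusted p = 0.036). This probe set is dim, at percentile 22.3 of all probe sets by its mean log2 intensity, and no check of its old values against background was made, so that no fold is given. The old minus young difference was -2.28 (SE 0.51, adjusted p = 0.0696), and without young replicate 3 it was -2.86 (adjusted p = 0.000152). With the ratio covariate the old minus young difference was -0.82 (adjusted p = 0.894) and the old CR minus old difference 0.05 (SE 0.89, adjusted p = 0.993). The call was also lost when any old CR mouse, or old replicate 1, 2, 3 or 5, was left out, with adjusted p up to 0.0783.

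The other Lamb1 probe sets gave estimates near 0 for old CR minus old. At the brightest (1424114_s_at, whose suffix marks probes that may match several transcripts), the means were 282 ± 76.9, 209 ± 37.8 and 203 ± 38.6 in young, old and old CR mice. The old CR minus old difference was -0.04 (95% interval -0.47 to 0.39). At 1424113_at the means were 83.6 ± 15.8, 68.0 ± 27.2 and 64.0 ± 13.0, and that difference was -0.01 (95% interval -0.57 to 0.54). Both intervals lie below the estimate from 1451241_at.

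Lama4 (chromosome 10, 38965515 to 39110188) encodes the alpha chain of endothelial laminin. At 1424808_at the young mice had 193, 237, 122, 200.1 and 226 and the old mice 157, 112, 94.2, 117 and 136. The old CR mice had 134, 206, 279, 212 and 261. Young replicate 3 was again the lowest young mouse, and the groups overlapped. The old CR minus old difference was 0.80 (SE 0.23, adjusted p = 0.0567) and the old minus young difference -0.65 (SE 0.23, adjusted p = 0.183), neither of them called. Without young replicate 3, where 7.32% and 4.72% of all probe sets were called, both passed, at 0.80 (adjusted p = 0.0283) and -0.81 (adjusted p = 0.0434). With the ratio covariate they were 0.21 (adjusted p = 0.962) and -0.22 (adjusted p = 0.950). The brighter Lama4 probe set (1424807_at) varied widely within each group, from 114 to 439 in young, 92.9 to 319.6 in old and 83.1 to 399.8 in old CR mice. Its old CR minus old difference was 0.41 (SE 0.50, adjusted p = 0.679).

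Lama2 and Lamb2 passed the test in no comparison. Lama2 (chromosome 10, 26981285 to 27617191), the alpha chain of the main muscle fiber laminin, had means of 870.1 ± 162, 698 ± 66.7 and 632 ± 93.8 in young, old and old CR mice. Its largest difference was -0.46 (SE 0.15, adjusted p = 0.221), for old CR minus young. Lamb2 (chromosome 9, 108479847 to 108490530), a beta chain concentrated at the neuromuscular junction, had means of 341 ± 66.7, 299.5 ± 54.7 and 366 ± 61.7. Its old CR minus old difference was 0.29, with a 95% interval of -0.10 to 0.68.

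Nid2 (chromosome 14, 19751257 to 19811787) encodes one of the nidogens, which connect laminin to collagen IV. At its single probe set (1423516_a_at) the young mice had 189, 212, 488, 280.4 and 161. The old mice had 415, 266, 345, 199.7 and 149, and the old CR mice had 79.5, 122, 121, 151 and 82.8. The old CR values lay below all young values, and the highest of them was just above the lowest old value. The mean fell from 275 ± 107 (old) to 111 ± 30.1 (old CR), 2.38-fold lower (log2 difference -1.25, SE 0.33, adjusted p = 0.0452). Against young mice (266 ± 132) the difference was -1.18 (SE 0.33, adjusted p = 0.173), and old and young mice differed by 0.07 (SE 0.33, adjusted p = 0.947). The call held in 3 of the 15 fits that left out 1 mouse (young replicate 3, young replicate 5 or old replicate 5) and was lost in the other 12, with adjusted p up to 0.101. With the ratio covariate the difference was 0.40 (adjusted p = 0.917).

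Nid1 (chromosome 13, 13437602 to 13512275), the more widely studied nidogen, gave opposite estimates at its probe sets. At the brighter one (1416808_at) the means were 1242 ± 202, 1088 ± 159 and 926 ± 138 in young, old and old CR mice, and the old CR minus old difference was -0.23 (SE 0.15, adjusted p = 0.394). At 1448469_at the young mice had 469, 420.3, 169, 828 and 693 and the old mice 175, 188, 226, 126 and 143. The old CR mice had 240.2, 362, 247, 371 and 403. All old CR values were above all old values, and young replicate 3 lay within the old range. The old CR minus old difference there was 0.92 (SE 0.35, adjusted p = 0.144) and the old minus young difference -1.43 (SE 0.35, adjusted p = 0.0868). Without young replicate 3 these were 0.92 (adjusted p = 0.0338) and -1.79 (adjusted p = 0.00172), and with the ratio covariate -0.50 (adjusted p = 0.917) and -0.40 (adjusted p = 0.933).

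Hspg2 (chromosome 4, 137468751 to 137570630), the gene for perlecan, was not called in any comparison. At its brighter probe set (1418669_at) the old CR mice had 3372, 3289, 3336, 4184 and 3911, with a mean of 3618 ± 405. The means were 2999.8 ± 397 in old and 3148 ± 404 in young mice, and the old CR minus old difference was 0.27 (SE 0.13, adjusted p = 0.249). At 1418670_s_at the means were 542 ± 124, 437 ± 134 and 394 ± 69.1 in young, old and old CR mice, and this difference was -0.11 (SE 0.23, adjusted p = 0.826).

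For 6 genes with over 1 probe set, the disagreement was measured as the log2 difference between probe sets in the same mouse, in 24 exact two-sided permutation tests of 5 mice against 5. Between old CR and old mice the groups did not overlap for 3 of these differences. That of Lamb1 1424114_s_at minus 1451241_at had a mean of 3.31 ± 0.63 for old and 1.23 ± 0.50 for old CR mice (SD, n = 5 each). For Lamb1 1424113_at minus 1451241_at the values were 1.62 ± 0.80 and -0.44 ± 0.30, and for Nid1 1416808_at minus 1448469_at they were 2.68 ± 0.18 and 1.53 ± 0.45. Each of these had the smallest p the design allows (exact permutation p = 0.00794, adjusted 0.0635). For Col4a1 1452035_at minus 1426348_at old mice had 0.58 ± 0.39 and old CR mice -0.18 ± 0.21 (exact permutation p = 0.0159, adjusted 0.0952). None of the 24 tests passed after adjustment. The plot against the 3′/5′ ratio shows that Lamb1 1451241_at and Nid1 1448469_at were low on the 6 arrays with a value above 0, the 5 old arrays and young replicate 3. With that property as a covariate in limma, 0 of 17 probe sets were called in each comparison, where almost no probe set of the array was (0%, 0% and 0.0354%). At an unadjusted p under 0.05 there were 4, 0 and 8 of 17 (old minus young, old CR minus old and old CR minus young), against 6.42%, 6.46% and 10.1% of all probe sets. The property is tied to the groups, so its part in their differences and that of age or diet cannot be told apart.

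**Figure D3:**
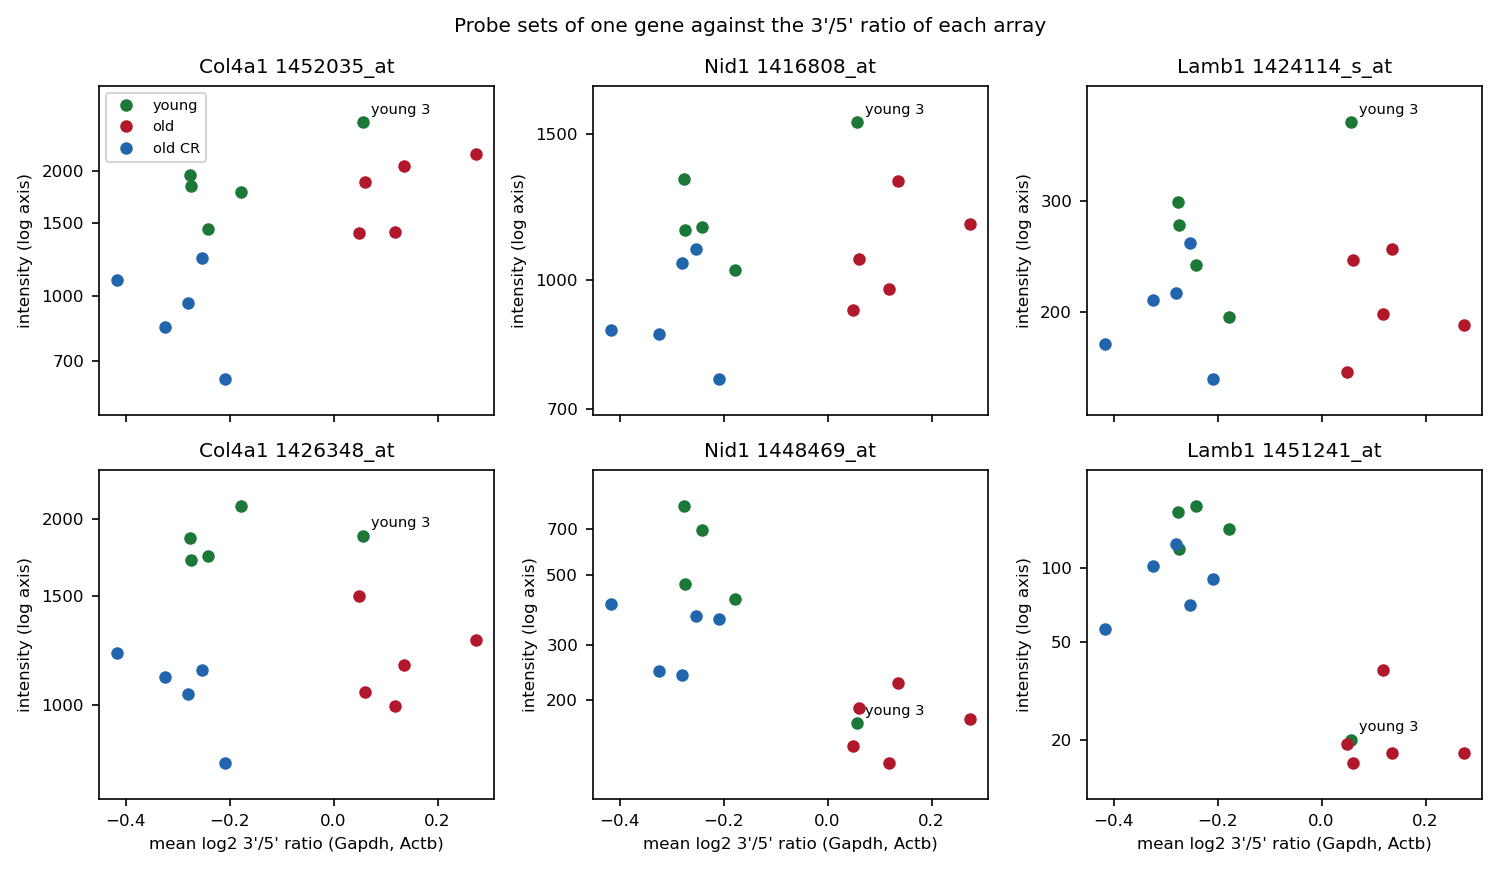
Intensity (y axes, log scale) of probe sets of Col4a1, Nid1 and Lamb1 against the log2 3′/5′ ratio of the same array, averaged over Gapdh and Actb (x axis), 1 point per mouse, colored by group. In the lower row, Nid1 1448469_at and Lamb1 1451241_at are low on the old arrays and on young replicate 3, which the upper row does not show for the other probe set of each gene.

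The rest of the basement membrane was read from a list of 21 measured genes, each at its brightest probe set. None was called in any comparison, where 0.186%, 4.83% and 0.0807% of 12393 genes were called for old minus young, old CR minus old and old CR minus young. At an unadjusted p under 0.05 (limma) there were 3, 4 and 5, against 15%, 22.1% and 12.7% of all genes. The list's medians were -0.27, 0.08 and -0.05, and 19 of 21 estimates were lower in old than in young mice, against 56.3% of all genes. Col15a1, a basement membrane collagen of muscle and capillaries, had 906 ± 176 in young, 586 ± 222 in old and 325 ± 86.1 in old CR mice, and its old CR minus young difference was -1.51 (SE 0.28, adjusted p = 0.0593). Sparc, a secreted protein that binds collagen IV, had 6218 ± 1692, 4303 ± 885 and 3512 ± 272, with -0.79 (SE 0.19, adjusted p = 0.125) for the same comparison. Agrn, the heparan sulfate proteoglycan that clusters acetylcholine receptors, had an old CR minus old difference of -0.87 (SE 0.27, adjusted p = 0.0755), and Tinagl1, a basement membrane glycoprotein, had 0.77 (SE 0.32, adjusted p = 0.171).

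Of 16 receptor genes, 3 were called between old CR and old mice, where 4.83% of all genes were. In each of the other comparisons limma called 0 of the 16. At an unadjusted p under 0.05 there were 4 for old minus young and 3 for old CR minus young, against 15% and 12.7% of all genes. Dag1, which encodes dystroglycan, the laminin receptor of the muscle fiber, fell from 4058 ± 359 to 2496 ± 176 (log2 difference -0.70, SE 0.14, adjusted p = 0.0162). Itga6, an integrin chain for laminin, fell from 586 ± 176 to 350.3 ± 53.4 (log2 difference -0.71, SE 0.19, adjusted p = 0.0454). Sgcb, a sarcoglycan of the dystrophin complex, rose from 1200.3 ± 142 to 1716 ± 152 (log2 difference 0.52, SE 0.12, adjusted p = 0.0263). With the ratio covariate the log2 differences were -0.13 for Dag1, -0.98 for Itga6 and 0.43 for Sgcb, none of them called (adjusted p = 0.954, 0.732 and 0.813). Of 24 alternative fits, 22 called Dag1, 17 called Sgcb and 9 called Itga6.

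Of 14 genes for the folding and secretion of collagen and laminin, 1 was called, for old CR minus old, where 4.83% of all genes were. Colgalt1, which adds galactose to collagen, fell from 1218 ± 46.0 (old) to 829 ± 67.1 (old CR) (log2 difference -0.56, SE 0.11, adjusted p = 0.0162). Serpinh1, the collagen chaperone, had 1510.5 ± 341 in young and 811 ± 226 in old mice, a difference of -0.91 (SE 0.21, adjusted p = 0.0741). Of 17 matrix proteases and inhibitors, 2 were called, both between old CR and old mice, against the same 4.83% of all genes. Bsg (basigin), an inducer of matrix metalloproteases, rose (log2 difference 1.22, SE 0.21, adjusted p = 0.0112), and Timp3, a metalloprotease inhibitor held in the matrix, fell (log2 difference -0.86, SE 0.19, adjusted p = 0.0255). Both values are from the brightest probe set of the gene. The paper lists a Timp3 probe set that was lower in old than in young mice, a change that CR reversed. With the covariate the log2 differences were -0.40 for Colgalt1, 0.26 for Bsg and -0.05 for Timp3, none of them called (adjusted p = 0.820, 0.927 and 0.986).

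Markers of the cells that make basement membranes were followed beside the members. Over all genes, 15%, 22.1% and 12.7% had an unadjusted p under 0.05 (limma) for old minus young, old CR minus old and old CR minus young. Of 15 endothelial markers, Vwf was the only one called. It was lower in old CR than in old mice (log2 difference -1.02, SE 0.21, adjusted p = 0.018), a comparison in which 4.83% of all genes were called. With the ratio covariate this difference was -0.83 (adjusted p = 0.810). In the same comparison Cldn5, a tight junction protein, had -0.80 (SE 0.22, adjusted p = 0.0526) and Pecam1, an adhesion molecule of the endothelium, had 0.79 (SE 0.22, adjusted p = 0.0529), in opposite directions. The summed intensity of the 15 was 8263 to 9193 in young, 7743 to 9481 in old and 7523 to 9177 in old CR mice. None of 11 pericyte and smooth muscle markers was called by limma (0, 2 and 1 at an unadjusted p under 0.05), and their sums overlapped in the same way (14353 to 16500.3, 13312 to 16637 and 14492 to 15659). None of 6 Schwann cell markers was called (1, 1 and 2 at an unadjusted p under 0.05), with sums of 6706 to 8048 in young, 5381 to 6985 in old and 4342 to 6232 in old CR mice. None of 5 adipocyte markers was called (1, 4 and 0 at an unadjusted p under 0.05), with sums of 7165 to 13801, 10908 to 17508 and 8295 to 12518. Whether single markers were detected over background was not tested. The dimmest endothelial marker, Erg, had a mean (taken on log2) of 27.6. The part of changing cell numbers in the members' differences was not tested.

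Fibroblasts and tendon cells make the fibrillar collagens around the fibers. The summed intensity of 12 of their markers was 28730.4 to 43998 in young, 21772 to 34295 in old and 19270.1 to 26368 in old CR mice, the last range wholly below the young one. This was not particular to these markers. The sums of the Schwann cell markers, the receptors and the other basement membrane genes separated in the same way. So did those of the members (10264 to 12808 in young and 7531 to 9923 in old CR mice). Col1a2, a chain of the fibrillar collagen I, had 6263 ± 1856 in young, 2696 ± 1068 in old and 2170.3 ± 353 in old CR mice, and fell between young and old CR mice (log2 difference -1.49, SE 0.25, adjusted p = 0.0472). It was the only marker of the list called, in a comparison where 0.0807% of all genes were, and it was called in 6 of 24 alternative fits. With the ratio covariate its difference was -1.36 (adjusted p = 0.131). At an unadjusted p under 0.05, 6 of the 12 markers were lower in old and 7 of the 12 lower in old CR mice than in young mice, against 8.47% and 7.43% of all genes, and for old CR minus old there was 1 in each direction. The members at their brightest probe sets had 0, 4 and 7 of 10 lower at that threshold, against 8.47%, 11.1% and 7.43% of all genes. The order is old minus young, old CR minus old and old CR minus young. The part of these markers in the members' differences was not tested. Col3a1 had -1.43 (SE 0.28, adjusted p = 0.0701) and Col1a1 -1.71 (SE 0.37, adjusted p = 0.0904) in the comparison in which Col1a2 was called. The paper lists probe sets of Col1a1, Col1a2 and Col3a1 as lower in old than in young mice, a change that CR did not reverse. Of 11 muscle fiber markers, Myh1, a fast myosin heavy chain, was called and rose between old and old CR mice (log2 difference 0.52, SE 0.12, adjusted p = 0.0297), where 4.83% of all genes were called. With the ratio covariate its difference was 0.74 (adjusted p = 0.620). All 11 were higher in old CR than in old mice, with a median of 0.32, and all 11 were lower in old than in young mice, with a median of -0.21.

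**Figure D4:**
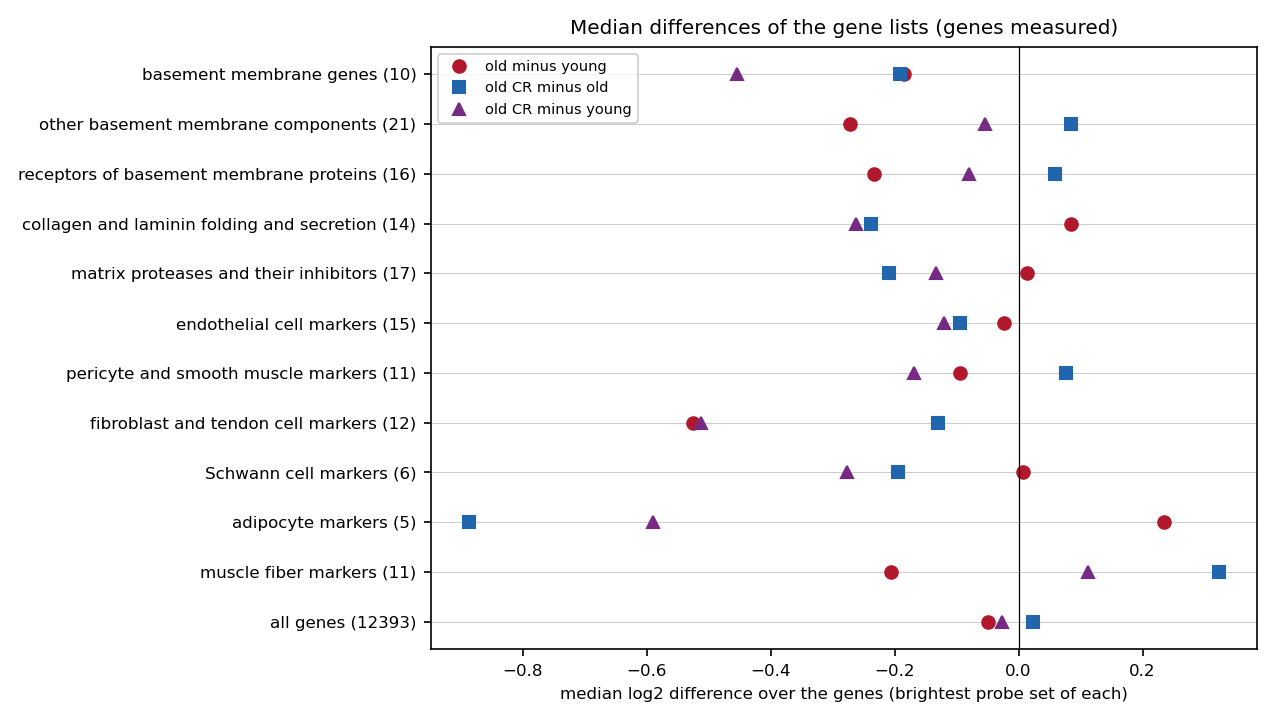
Median log2 difference (x axis) over the genes of each list (y axis, number of genes measured in parentheses) at the brightest probe set of each gene, in the 3 comparisons. The basement membrane genes had medians of -0.18, -0.19 and -0.45 for old minus young, old CR minus old and old CR minus young, and the fibroblast and tendon markers had -0.52, -0.13 and -0.51.

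Variation between mice of one group was also described. The mean log2 deviation of the 10 genes from their group means ran from -0.25 (young replicate 2) to 0.31 (young replicate 3). Over 15 arrays, the 5 genes of 7176 whose deviations were most like this mean were Marcks (Pearson r = 0.90), Lman1 (0.86), Mapre1 (0.86), Gosr2 (0.85) and Cav1 (0.85). These are descriptions over arrays that share their labeling and scaling. Of the 5, Marcks, a substrate of protein kinase C, was called between old CR and old mice and fell, with a log2 difference of -1.002 (adjusted p = 0.00752).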

How the data were processed

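Polyadenylated RNA from 15 gastrocnemius muscles was labeled by the authors and hybridized to MOE430A arrays, 1 per mouse. The methods state that each array was scanned repeatedly and the images averaged. The deposited values are linear intensity per probe set. The submitters' processing notes name MAS5 and RMA without saying which made the table, and every array has a mean of 500 after 2% of the values are trimmed at each end, while quartiles differ, which are properties of array-by-array scaling. Such scaling does not remove differences in signal distribution or in 5′ representation between arrays. Scanner files and detection calls were not used here.

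Log2 of the intensity was taken without a pseudocount. After removal of 64 control probe sets, limma 3.58.1 (R 4.3.3: lmFit, contrasts.fit, eBayes) was fitted to 22626 probe sets with the 3 groups in 1 model, with Benjamini-Hochberg adjustment in each comparison. Groups came from the sample titles. Genes were named by the platform annotation (20380 tested probe sets with 1 symbol, 691 with several, none of which names a member). The brightest probe set of a gene has the highest mean log2 over 15 arrays. All members are named, and of each other list up to 4 genes with the smallest p of a comparison. Of 152 listed genes, 138 were measured. Single values per mouse were compared by exact permutation tests (SciPy 1.17.1). The number of arrays limits the precision. The steps were tested on simulated data. Members and gene lists were chosen with earlier results of these data known. The comparison of probe sets of one gene, and the alternative that joins the brighter probe sets with leaving out young replicate 3, were added after seeing the data. Promoters are RefSeq entries on GRCm38.p6.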

Additional observations from a re-analysis of the deposited data

Results flagged for a closer look

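Of the 17 probe sets in 3 groups of 5 mice, 4 groups held a mouse far from the others, where chance gives about 1 in 20 groups. The rule was a gap to the nearest mouse above 0.71 of the range, taken on log2 values, while the intensities below are linear. Young replicate 2 had the lowest intensity of the young mice at Lama4 1424807_at, 113.6. Young replicate 3 had the lowest at Lamb1 1451241_at, 20.1, and at Lamc1 1423886_at, 28.1. Old replicate 4 had the highest of the old mice at Lamb1 1451241_at, 38.7. Young replicate 3 is also the young array with the highest 3′/5′ ratio (log2) of Gapdh (0.28) and Actb (-0.17).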

How the results depend on the processing

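The medians of the 17 probe sets moved by less than the SD between mice under all alternatives run. For old CR minus old this is a loose criterion, since the SD (0.15) is larger than the median (-0.04). That median changed sign with the 3′/5′ covariate (0.05), without old replicate 2 (0.02) and without old CR replicate 7 (0.0025). Of 1194 alternative fits of single probe sets 1088 kept direction and call, 40 gained a call, 30 lost it and 36 changed sign. Most of these fits were of probe sets not called in the reported fit, which had no call to lose. The 3 calls, all for old CR minus old, were kept in 18 of 24 fits for Col4a1 1452035_at, 11 of 22 for Lamb1 1451241_at and 8 of 22 for Nid2. The counts of called probe sets were less stable, and so were those over the whole array, given here as the percent of all probe sets called in the same fit. For old minus young (0 called), 3 were called at an adjusted p under 0.10 (1.68%), with a variance trend (1.85%) and with array weights (3.4%), 2 among the brighter probe sets with or without young replicate 3 (5.06% and 13.6%), and 1 when the probe sets of each gene were averaged (0.315%), against 0.265% in the reported fit; leaving out 1 mouse gave 0 to 5, the highest without young replicate 3 (4.72%). For old CR minus old (3 called), 5 were called at an adjusted p under 0.10 (10.1%) and with array weights (5.93%), 0 with the 3′/5′ covariate (0%), and 0 to 6 without 1 mouse, against 4.87% in the reported fit, with 6 without young replicate 3 (7.32%) and 0 without old replicate 1, 2 or 3 or old CR replicate 5 (2.04% to 3.27%). For old CR minus young (0 called), 3 were called at an adjusted p under 0.10 (0.438%), among the brighter probe sets with or without young replicate 3 (1.8% and 1.16%), and with a variance trend (0.667%), 1 with array weights (0.115%) and with a pseudocount of 16 (0.181%), and 0 to 1 without 1 mouse (1 without old replicate 4), against 0.0884% in the reported fit.

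Over the 128 genes of the other lists, limma called 0, 8 and 1 for old minus young, old CR minus old and old CR minus young, where 0.186%, 4.83% and 0.0807% of all genes were called. The shares over all genes moved with those of the lists under the alternatives (for old CR minus old 10.2% at an adjusted p under 0.10, 15.1% among the brighter probe sets and 0% with the covariate). At an adjusted p under 0.10 the list counts were 6, 20 and 5, among the brighter probe sets 11, 21 and 9, without young replicate 3 as well 19, 23 and 5, with a variance trend 6, 19 and 8, and with array weights 8, 13 and 0. With the covariate 0 were called in each. A pseudocount of 16 gave 1 for old minus young and 2 for old CR minus young, and centering, fitting only the groups compared or averaging probe sets gave 0 for old CR minus young. Leaving out 1 mouse gave 0 to 15, 5 to 13 and 0 to 1, with the highest counts of the first and second ranges without young replicate 3.

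With the 3′/5′ covariate the sign changed for old minus young at Lamb2 (0.0468) and Nid2 (-1.14), for old CR minus young at Lama4 1424808_at (-0.0084), and for old CR minus old at Lama2 (0.20), Lamb1 1424114_s_at (0.38), Lamb1 1424113_at (0.64), Lamb2 (-0.0209), Lamc1 1423886_at (-0.53), Nid1 1416808_at (0.16), Nid1 1448469_at (-0.50), Nid2 (0.40) and Hspg2 1418670_s_at (0.0463). Centering each array on its median changed Hspg2 1418669_at for old minus young (0.0196). Among the brighter probe sets without young replicate 3, Col4a1 1452035_at for old minus young (0.0185) and Lamb2 for old CR minus young (-0.0170) changed sign. Leaving out 1 mouse gave values on both sides of 0, or within 0.01 of it, for old minus young at Col4a1 1452035_at (-0.20 to 0.0185), Nid2 (-0.10 to 0.32) and Hspg2 1418669_at (-0.13 to 0.0013), for old CR minus old at Lamb1 1424114_s_at (-0.13 to 0.0493), Lamb1 1424113_at (-0.21 to 0.17) and Hspg2 1418670_s_at (-0.25 to 0.0078), and for old CR minus young at Lama4 1424807_at (-0.70 to 0.0379), Lama4 1424808_at (-0.0097 to 0.32) and Lamb2 (-0.0170 to 0.21). The cause of these changes was not tested.

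The replicate numbers did not pair the mice: deviations from the group means correlated between -0.12 and 0.07 for mice of equal number. With the replicate number as a block, 0 members were called in each comparison (0%, 0.0177% and 0% of all probe sets were), and 0 list genes for old CR minus old and for old CR minus young. The sign changed under the block for Lamb1 1424113_at in old CR minus old (0.26) and for Lamb1 1451241_at in old CR minus young (0.33). Lamb1 1451241_at and Lamc1 1423886_at are dim, and their signal over background was not tested.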
